A study of Mus musculus with 4 samples.

Results

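The transcripts of 35 genes of the mitogen-activated protein kinase (MAPK) cascade were examined in RNA-seq libraries of para-tumour pancreatic tissue from mice. The genes were chosen by symbol and pathway role, with earlier results of these data known, and all 35 were found among the 55401 gene identifiers of the deposited table. They were ordered by their place in the cascade: 5 RAS proteins and adaptors, 2 RAF kinases, 8 MAP3K, 7 MAP2K, 9 MAPK and 4 MAPK-activated kinases. Not every kinase of the cascade is on the list.

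The groups were 2 libraries from CRFR1-KO mice, in which the corticotropin-releasing factor receptor CRFR1 was conditionally knocked out, and 2 libraries from wild-type (WT) mice. Both groups carried pancreatic ductal adenocarcinoma, with Panc02, a mouse pancreatic cancer line, named in the labels. The Cre driver of the conditional knockout, the strain, the sex, the age of the mice and the timing of the tumour are not stated in the labels. The title of the series places CRFR1 in mast cells and names MAPK signalling, so the comparison asks whether transcripts of that cascade differ between the genotypes. The labels do not say whether each library is a separate animal, so a p-value here reflects differences among 4 libraries that could be technical in origin.

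MAPK signalling passes through a relay of kinases. A receptor recruits the adaptor GRB2 and the exchange factor SOS1, RAS is loaded with GTP, and a MAP3K (a RAF kinase in the ERK branch) phosphorylates a MAP2K, which phosphorylates a MAPK such as ERK, JNK or p38. The active MAPK then phosphorylates further kinases, among them MK2 and RSK. Flow through the relay is set mainly by phosphorylation, which RNA levels do not measure. In the pancreas, activated RAS and the ERK branch are known for their role in ductal adenocarcinoma, and the p38 and JNK branches are activated in acinar cells in experimental pancreatitis.

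The libraries held between 63495457 and 71203640 counts. The 27 acinar genes listed, mostly digestive enzymes, took 56.0% and 57.3% of the counts in CRFR1-KO and 54.3% and 54.2% in WT, while the 35 cascade genes together took 0.0254% and 0.0295% in CRFR1-KO and 0.034% and 0.0274% in WT. Crhr1, the gene of the receptor, had 0 counts in all 4 libraries, which at a floor of 3 counts allows between 0.0363 and 0.048 CPM (library counts scaled to a common total), so the knockout could not be checked at this depth. Of the 10 mast cell markers listed, 6 had no count in any library, including the chymase and tryptase genes Cma1, Mcpt4, Tpsb2 and Tpsab1, and the list summed to 15.3 and 11.3 CPM in CRFR1-KO and 12.2 and 14.8 CPM in WT. Most of these sums was Kit, a receptor gene that other cell types also express, at 13.98 and 10.7 CPM in CRFR1-KO and 11.4 and 13.7 CPM in WT, and each other marker of the list was below 1 CPM in every library. In bulk tissue, fewer cells of a type and less RNA per cell cannot be told apart.

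No cascade gene passed the test of a difference between the genotypes. Of the 35 genes, all of which passed the filter on low counts, 0 passed the edgeR quasi-likelihood test after adjustment over all 15131 genes tested, and each had an adjusted p of at least 0.9999. Across all genes tested 0.0264% passed, with 0.0132% higher and 0.0132% lower in CRFR1-KO. Without adjustment, 0 cascade genes had a p under 0.05 in either direction, beside 4.86% of all genes tested (1.71% higher and 3.15% lower), and the DESeq2 Wald test and limma-voom called 0 as well, beside 0.262% and 0% of the genes that each tested. In CRFR1-KO 14 cascade genes were measured higher and 21 lower than in WT, that is 60% lower, beside 50.8% of all genes tested. The median log2 fold change was -0.05, beside -0.01 over all genes tested. Single genes lay between -0.42 and 0.31. Sphk1, the sphingosine kinase gene that the title also names, was at 1.98 and 2.23 CPM in CRFR1-KO and 4.06 and 5.71 CPM in WT, without overlap (log2 fold change -1.21, SE 0.27, edgeR adjusted p = 0.682).

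**Figure D1:**
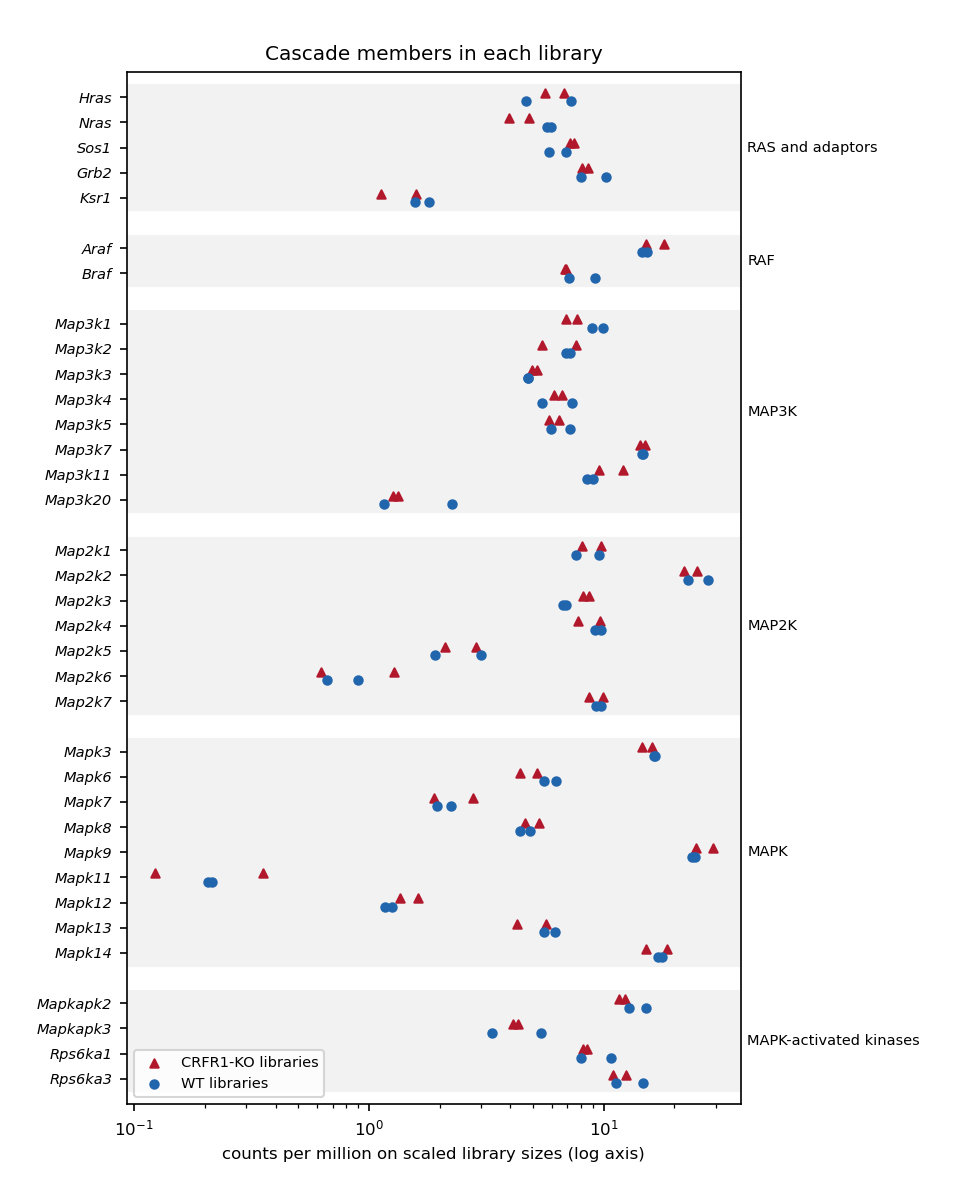
CPM (log axis) of the 35 cascade genes, grouped by tier, in the 2 CRFR1-KO libraries (red triangles) and the 2 WT libraries (blue circles). Levels ran from about 0.12 CPM for Mapk11 to about 29.2 CPM for Mapk9, and the libraries of the genotypes overlapped for 23 of the 35 genes. Libraries of 1 genotype lay well apart for some scarce genes, among them Mapk11, Map2k6 and Map3k20.

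Levels are given as CPM on library sizes scaled by the trimmed mean of M values (TMM), and differences as log2 fold change of CRFR1-KO over WT with its standard error (SE) and 95% interval. In the RAS and adaptor tier, Nras, a RAS GTPase (ENSMUSG00000027852; chromosome 3, 103058285 to 103067914, GRCm38), had 300 and 259 counts in CRFR1-KO and 493 and 375 in WT. These were 4.80 and 3.96 CPM in CRFR1-KO and 5.96 and 5.73 CPM in WT. Both CRFR1-KO libraries lay below both WT libraries, with a log2 fold change of -0.42 (SE 0.21, interval -0.91 to 0.08, edgeR unadjusted p = 0.0865, adjusted p = 0.9999). The exchange factor gene Sos1 was at 7.49 and 7.16 CPM in CRFR1-KO and 5.86 and 6.91 CPM in WT, the opposite direction (log2 fold change 0.20, SE 0.19, interval -0.25 to 0.65). Hras, another RAS GTPase, was at 6.18 ± 0.825 CPM in CRFR1-KO and 5.96 ± 1.81 CPM in WT (SD, n = 2 libraries each), with overlapping libraries. Grb2 overlapped too, at 8.31 ± 0.347 CPM in CRFR1-KO and 9.11 ± 1.54 CPM in WT (SD, n = 2 libraries each). Ksr1, a scaffold that brings RAF, MEK and ERK together, was the lowest of the tier at 1.12 and 1.59 CPM in CRFR1-KO and 1.80 and 1.57 CPM in WT.

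Of the RAF kinases, Braf was at 6.88 and 6.81 CPM in CRFR1-KO and 7.14 and 9.14 CPM in WT (log2 fold change -0.25, SE 0.20, interval -0.71 to 0.22). Its libraries did not overlap, although WT 1 lay close to the CRFR1-KO values. Without WT 2 the log2 fold change of Braf was -0.056. Araf stood at 15.2 and 18.1 CPM in CRFR1-KO and 15.3 and 14.6 CPM in WT, and overlapped (log2 fold change 0.15, SE 0.17, interval -0.25 to 0.55). The 2 kinases thus gave estimates of opposite sign, and their intervals overlapped each other.

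Among the MAP3K, Map3k1, which encodes MEKK1, a kinase upstream of JNK (ENSMUSG00000021754; chromosome 13, 111746428 to 111808993, GRCm38), had the smallest unadjusted p of all 35 genes. Its counts were 432 and 505 in CRFR1-KO and 820 and 584 in WT, or 6.91 and 7.71 CPM in CRFR1-KO and 9.92 and 8.92 CPM in WT. The 2 genotypes did not overlap, at a log2 fold change of -0.37 (SE 0.18, interval -0.79 to 0.06, edgeR unadjusted p = 0.0798, adjusted p = 0.9999). Map3k11, which encodes the mixed-lineage kinase MLK3, lay on the other side at 9.54 and 12.1 CPM in CRFR1-KO and 8.47 and 8.999 CPM in WT (log2 fold change 0.31, SE 0.19, interval -0.14 to 0.75). Map3k7, which encodes TAK1, a kinase downstream of TGF-beta and inflammatory cytokine receptors, was nearly level, at 14.6 ± 0.539 CPM in CRFR1-KO and 14.6 ± 0.0903 CPM in WT (SD, n = 2 libraries each). Its interval of -0.37 to 0.37 was the narrowest of the list. Map3k2, Map3k3, Map3k4 and Map3k5, the last encoding the stress kinase ASK1, had log2 fold changes between -0.10 and 0.09. Map3k2 was at 7.63 and 5.44 CPM in CRFR1-KO, on either side of 7.17 and 6.88 CPM in WT, and Map3k3 at 4.93 and 5.19 CPM in CRFR1-KO and 4.77 and 4.74 CPM in WT, separated by a small margin. Map3k4 was at 6.67 and 6.16 CPM in CRFR1-KO, between the WT values of 7.36 and 5.47 CPM, and Map3k5 at 5.82 and 6.45 CPM in CRFR1-KO and 5.95 and 7.20 CPM in WT. Map3k20, which encodes the ribotoxic stress kinase ZAK, was at 1.26 and 1.33 CPM in CRFR1-KO and 2.26 and 1.16 CPM in WT, so that its estimate of -0.40 rested on WT 1. Without WT 1 it was 0.16.

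Nras and Map3k1 had the smallest p, and the 250 bases before the start of each are shown for that reason, 5′ to 3′ on the strand of the gene, as annotated by RefSeq on GRCm38.p6. Capitals mark the GC box GGGCGG on either strand, a site of SP-family factors. The Nras window spans chr3:103058035-103058284 on the plus strand and the Map3k1 window chr13:111808994-111809243 on the minus strand.
Nras: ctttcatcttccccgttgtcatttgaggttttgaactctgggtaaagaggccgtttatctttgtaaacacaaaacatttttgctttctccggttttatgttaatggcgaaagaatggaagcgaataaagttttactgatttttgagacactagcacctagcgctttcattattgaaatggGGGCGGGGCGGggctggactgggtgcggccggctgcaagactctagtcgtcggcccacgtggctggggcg
Map3k1: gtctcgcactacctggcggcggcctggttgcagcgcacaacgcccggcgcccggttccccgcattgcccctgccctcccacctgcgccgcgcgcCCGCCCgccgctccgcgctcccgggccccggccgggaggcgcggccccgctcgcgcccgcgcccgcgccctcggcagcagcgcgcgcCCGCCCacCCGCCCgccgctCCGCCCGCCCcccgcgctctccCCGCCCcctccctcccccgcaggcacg

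The Map3k1 window was 85.2% G and C with 6 GC boxes, and the Nras window 48.4% with 2 that overlap. RefSeq windows of 300 bases (250 before to 50 after the start) were found for 32 of the 35 genes, and not for Mapk3, Map3k2 and Rps6ka3. The windows of Grb2 and Araf belong to starts that lie 8669 and 50729 bases inside their GENCODE gene models, while those of Nras and Map3k1 end where the models begin. A GC box was present in 23 of the 32 windows, or 71.9%, beside 60.3% of the 13820 windows of genes tested here. The motif TATAAA was present in 1 of 32, or 3.12%, that of Grb2, beside 7.69% of the windows of genes tested, and CCAAT in 34.4% beside 37.3%. The median window held 28 CG dinucleotides, beside 19 over genes tested. These matches are a description of letters in the window, on both strands, and not of factor binding.

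In the MAP2K tier, Map2k3, a kinase that activates p38, had the smallest p. It was at 8.18 and 8.68 CPM in CRFR1-KO and 6.90 and 6.68 CPM in WT, with both CRFR1-KO libraries above both WT libraries (log2 fold change 0.31, SE 0.17, interval -0.10 to 0.72, edgeR unadjusted p = 0.116, adjusted p = 0.9999). Map2k6, the other p38 activator listed, was scarce and variable, at 1.28 and 0.626 CPM in CRFR1-KO and 0.665 and 0.902 CPM in WT. Of the kinases that activate JNK, Map2k4 was at 7.78 and 9.61 CPM in CRFR1-KO and 9.75 and 9.20 CPM in WT, and overlapped (log2 fold change -0.12, SE 0.19, interval -0.56 to 0.31). Map2k7 was at 9.31 ± 0.868 CPM in CRFR1-KO and 9.47 ± 0.304 CPM in WT (SD, n = 2 libraries each). The ERK-branch kinases Map2k1 and Map2k2, encoding MEK1 and MEK2, overlapped as well, with log2 fold changes of 0.05 (interval -0.42 to 0.53) and -0.11 (interval -0.53 to 0.32). Map2k5, which activates ERK5, was at 2.48 ± 0.527 CPM in CRFR1-KO and 2.46 ± 0.779 CPM in WT (SD, n = 2 libraries each).

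Among the MAPK, Mapk3, which encodes ERK1 (ENSMUSG00000063065; chromosome 7, 126759601 to 126765819, GRCm38), was at 16.1 and 14.6 CPM in CRFR1-KO and 16.4 and 16.6 CPM in WT. The libraries did not overlap, but CRFR1-KO 1 lay nearer to WT than to CRFR1-KO 2, and the log2 fold change of -0.10 (SE 0.16, interval -0.48 to 0.27, edgeR unadjusted p = 0.532, adjusted p = 0.9999) had an interval that spanned 0. Mapk14, which encodes p38 alpha, was at 15.1 and 18.7 CPM in CRFR1-KO, on either side of the WT values of 17.1 and 17.8 CPM (log2 fold change -0.05, SE 0.18, interval -0.46 to 0.37, edgeR unadjusted p = 0.804, adjusted p = 0.9999). Mapk6, which encodes the atypical kinase ERK3, was at 5.18 and 4.40 CPM in CRFR1-KO and 6.27 and 5.58 CPM in WT, without overlap (log2 fold change -0.31, SE 0.21, interval -0.80 to 0.18). Mapk13, or p38 delta, was at 4.26 and 5.70 CPM in CRFR1-KO and 5.58 and 6.20 CPM in WT, and overlapped (log2 fold change -0.24, SE 0.23, interval -0.77 to 0.29). The JNK genes Mapk8 and Mapk9 had log2 fold changes of 0.10 (SE 0.21) and 0.16 (SE 0.17). Mapk9 was at 29.2 and 24.7 CPM in CRFR1-KO and 23.7 and 24.6 CPM in WT, and CRFR1-KO 2 and WT 2 were nearly equal. Mapk7, or ERK5, was at 2.33 ± 0.620 CPM in CRFR1-KO and 2.097 ± 0.1995 CPM in WT, and Mapk12, or p38 gamma, at 1.49 ± 0.183 CPM in CRFR1-KO and 1.21 ± 0.0562 CPM in WT (SD, n = 2 libraries each). Mapk11, or p38 beta, had only 22 and 8 counts in CRFR1-KO and 17 and 14 in WT, and its interval of -2.12 to 2.47 allowed a large difference either way.

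All 4 MAPK-activated kinases were measured lower in CRFR1-KO by edgeR, none past the test, while limma-voom put Mapkapk3 at 0.0182. Mapkapk2, which encodes MK2, a p38 target that stabilises cytokine mRNAs, was at 12.3 and 11.6 CPM in CRFR1-KO and 15.1 and 12.8 CPM in WT, without overlap (log2 fold change -0.23, SE 0.17, interval -0.63 to 0.18). The RSK gene Rps6ka1 was at 8.53 and 8.17 CPM in CRFR1-KO and 10.7 and 8.04 CPM in WT. Its estimate of -0.17 (SE 0.20, interval -0.64 to 0.30) became 0.06 without WT 1. Rps6ka3, another RSK gene, and Mapkapk3, a relative of MK2, overlapped between genotypes. Rps6ka3 was at 12.5 and 11.0 CPM in CRFR1-KO and 11.2 and 14.7 CPM in WT, and Mapkapk3 at 4.32 and 4.09 CPM in CRFR1-KO, between the WT values of 3.34 and 5.39 CPM. Without WT 2 their log2 fold changes were 0.06 and 0.34. The shared direction of the 4 genes was therefore not kept when a single WT library was left out.

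**Figure D2:**
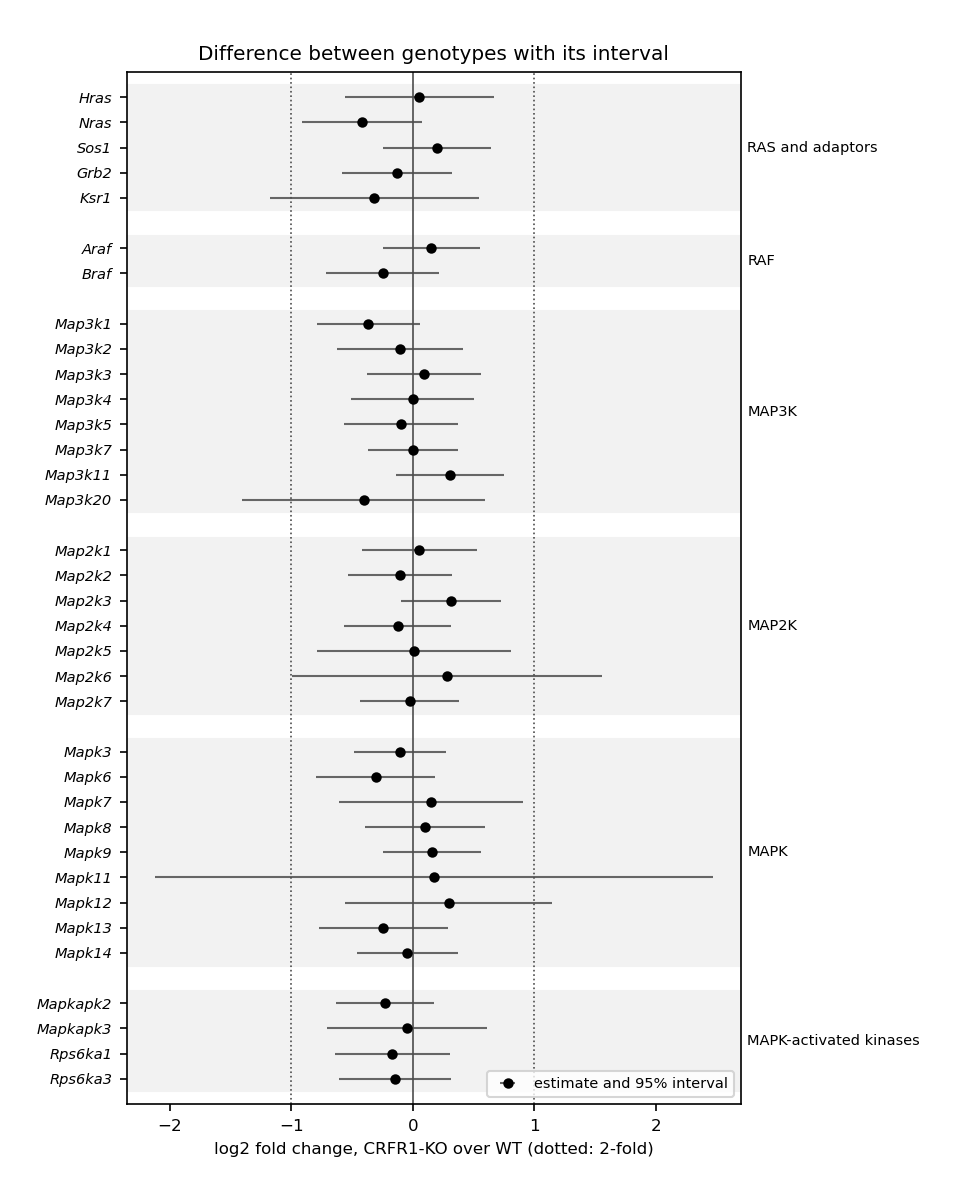
Log2 fold change of CRFR1-KO over WT (points) with its 95% interval (lines) for the 35 cascade genes by tier, from the edgeR fit over all genes. Every interval includes 0, and 30 of the 35 lie wholly inside a 2-fold change either way (dotted lines).

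The intervals set how large a difference these data allow. In the main edgeR fit the 95% interval excluded a 2-fold change either way for 30 of the 35 genes, beside 51.1% of all genes tested. The cascade genes had the higher median level, 6.85 CPM beside 3.16 CPM, and the part of abundance in this contrast was not tested. For 13 genes it excluded a 1.5-fold change, with no share over all genes at hand. Some SEs were larger under other settings, as for Nras with 0.322 on library totals and 0.316 in the DESeq2 Wald test, beside 0.21. The counts hold for the main fit alone. In that fit the 5 genes whose interval reached 2-fold were Ksr1, Map3k20, Map2k6, Mapk11 and Mapk12, the 5 with the lowest CPM of the list. The SE lay between 0.157 for Map3k7 and 0.974 for Mapk11, with a median of 0.1997.

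Both libraries of a genotype lay wholly to one side of the other for 12 of the 35 genes, as many as 6 in each direction. Nras, Braf, Map3k1, Mapk3, Mapk6 and Mapkapk2 were separated with CRFR1-KO lower, beside 16.9% of all genes tested. Sos1, Map3k3, Map3k11, Map2k3, Mapk9 and Mapk12 were separated with CRFR1-KO higher, beside 16.6%. Over the cascade genes, libraries of the same genotype were also close. Across all genes the 2 WT libraries had the lowest correlation of any pair, at 0.968. The CRFR1-KO pair had 0.98, and pairs across genotypes lay between 0.971 and 0.974. The median absolute log2 ratio between libraries was 0.188 between the CRFR1-KO libraries and 0.151 between the WT libraries over the cascade genes, beside 0.221 and 0.270 over all genes tested. The median absolute log2 fold change between genotypes was 0.149, beside 0.226 over all genes tested. It compares groups of 2 libraries, so its size cannot be set directly against a ratio of single libraries. Cascade genes were also more abundant than most, at a median of 6.85 CPM beside 3.16 CPM over all genes tested.

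Per kilobase of exon, the ERK1 gene was the most abundant of the list, although with the longest coding transcript as length Map2k2 (10.1 CPM per kb) exceeded Mapk3 (8.83 CPM per kb). Sums, shares and ranks of a tier cover its listed genes alone, and not every kinase of that tier. The summed level of the MAPK tier was 18.4 and 18.3 CPM per kb in CRFR1-KO and 18.7 and 19.05 CPM per kb in WT, of which Mapk3 held 38.8% and 35.2% in CRFR1-KO and 38.9% and 38.5% in WT. Mapk14 and Mapk9 followed at a mean of 3.92 and 3.76 CPM per kb over the 4 libraries, against 7.04 for Mapk3, and their libraries overlapped each other. Mapk13 was at 1.73 CPM per kb, Mapk6 at 0.803, Mapk7 at 0.503 and Mapk8 at 0.418, so that JNK2 transcripts exceeded those of JNK1 in every library. Of the p38 genes, p38 alpha was the highest and p38 beta, at 0.0774 CPM per kb, the lowest.

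In the MAP2K tier the sums were 14.5 and 14.7 CPM per kb in CRFR1-KO and 14.1 and 14.95 in WT. Map2k2 led with 30.4% and 26.2% of the tier in CRFR1-KO and 28.5% and 32.7% in WT, ahead of Map2k1, Map2k7 and Map2k3, which stood at means of 2.57, 2.45 and 2.295 CPM per kb and overlapped. In the MAP3K tier, with sums of 8.82 and 9.59 CPM per kb in CRFR1-KO and 9.15 and 9.03 in WT, Map3k7 and Map3k11 led and did not differ beyond their spread. The tier's lowest member was Map3k20, at 0.148 CPM per kb. Of the 2 RAF genes listed, Araf held 82.4% and 84.9% of the summed level in CRFR1-KO and 82.0% and 77.2% in WT. Grb2 held between 45.9% and 47.3% of the listed RAS and adaptor tier. Per kb, the sums of 2 of the 6 tiers, MAPK and MAPK-activated, did not overlap between genotypes. Of single genes tested, 16.9% were separated with CRFR1-KO lower and 16.6% with it higher. Those shares are no baseline for sums over several genes, for which none is at hand. Without division by length the MAPK sums overlapped, at 78.7 and 77.1 CPM in CRFR1-KO and 77.4 and 78.5 CPM in WT. In the MAPK-activated tier they were 8.31 and 7.79 CPM per kb in CRFR1-KO and 9.44 and 8.84 in WT, with Mapkapk2 at close to one share in every library (48.5% and 49.0% in CRFR1-KO, 52.7% and 47.7% in WT). With the length of the longest coding transcript in place of all exons, the leading gene of each tier was the same and 9 of the 35 genes changed rank.

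**Figure D3:**
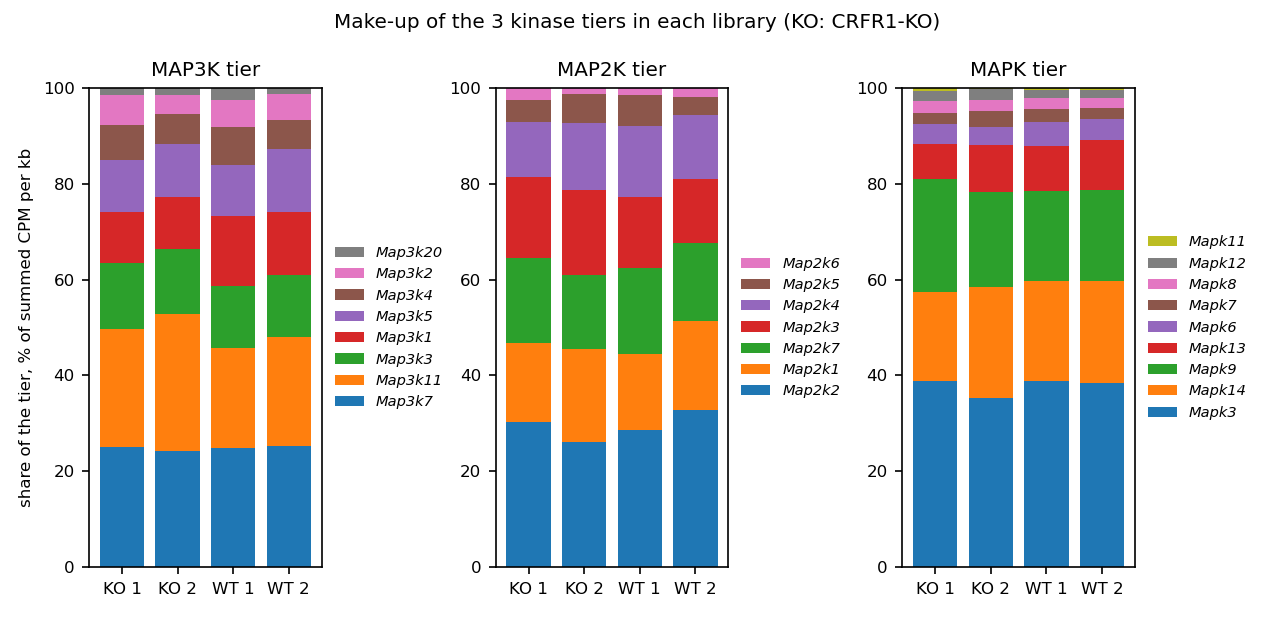
Share of each gene in the summed CPM per kb of the listed genes of its tier (stacked bars, in percent). Bars are for the MAP3K, MAP2K and MAPK tiers, in CRFR1-KO 1 and 2 and WT 1 and 2. Mapk3 holds between 35.2% and 38.9% of the MAPK tier, and the make-up of the tiers is similar in all 4 libraries.

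Leaving out each library in turn left 15 of the 35 genes with the same sign in all 4 fits, and 20 changed sign in at least one. With the 9 other settings counted too, 14 kept their sign throughout. These were Nras, Ksr1, Braf, Map3k1, Mapk3, Mapk6, Mapk13 and Mapkapk2 on the lower side, and Sos1, Araf, Map3k11, Map2k3, Mapk9 and Mapk12 on the higher side. None of the 14 passed the test in any of these fits. Among the fits without 1 library the count of lower genes moved between 16 without WT 2 and 22 without CRFR1-KO 2, and without WT 2 the median turned to 0.0323. On library totals without a scaling factor the count was 26.

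**Figure D4:**
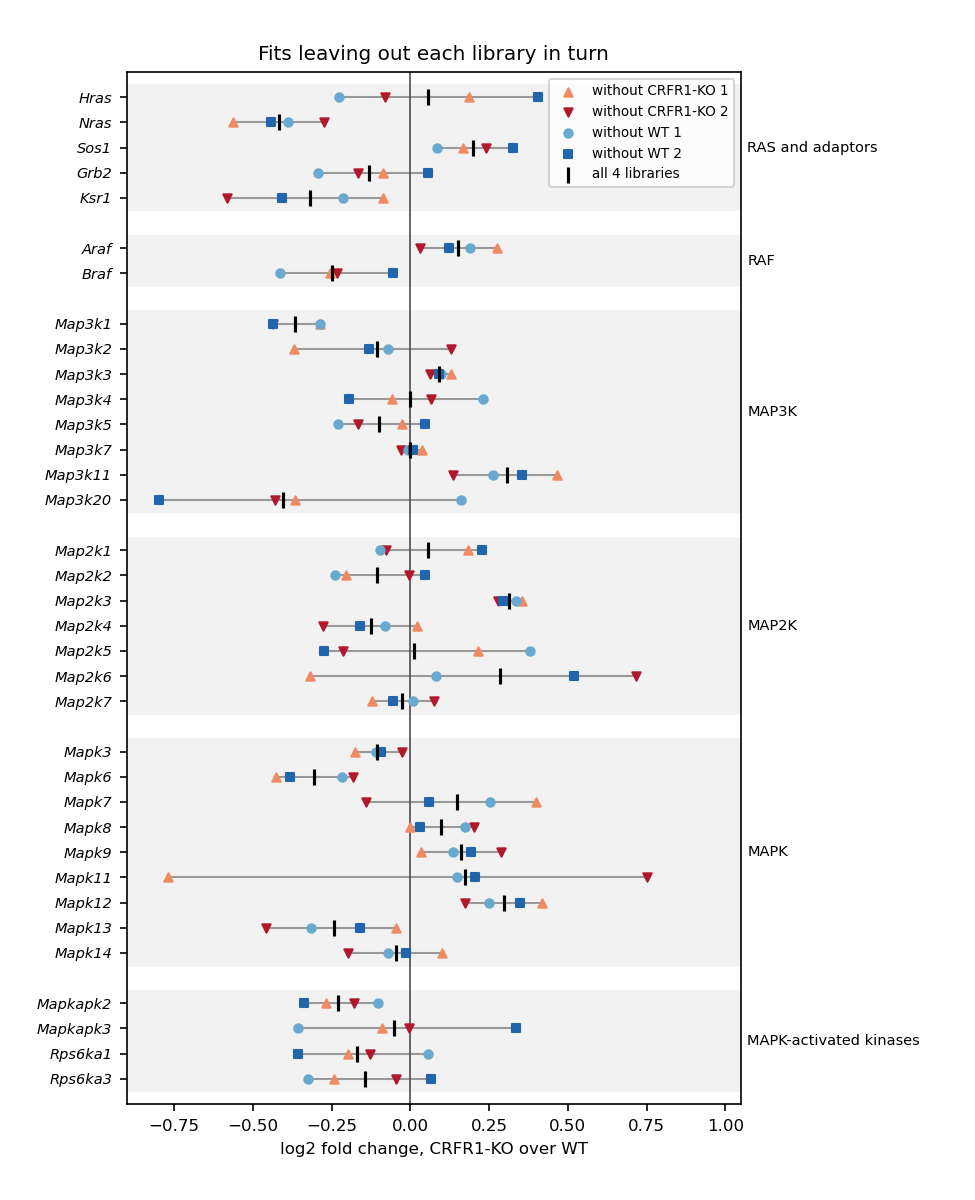
Log2 fold change of CRFR1-KO over WT for the 35 cascade genes with all 4 libraries (black bars) and without each library (coloured symbols), with grey lines over the range of the 4 reduced fits. Map2k3 and Map3k1 stay on one side of 0, while Hras, Map3k20, Map2k6 and Mapk11 cross it.

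WT 1 stood apart from the other libraries in its summed level of fibroblast and matrix markers. All 14 fibroblast and matrix markers were measured lower in CRFR1-KO, at a median log2 fold change of -0.95, and their summed level was 228 and 259 CPM in CRFR1-KO, 674 CPM in WT 1 and 318 CPM in WT 2. None of the 14 was at 0 in all libraries, and 8 had an unadjusted p under 0.05, beside 4.86% of all genes tested. EdgeR called 0 of the 14 and DESeq2 called 2, beside 0.262% of the genes DESeq2 tested. The median log2 ratio of WT 1 to WT 2 over this list was 1.07, but Dcn and Pdgfra were higher in WT 2. Macrophage markers, 6 of 7 of them lower and 1 called by DESeq2, summed to 35.1 and 57.0 CPM in CRFR1-KO, 96.4 CPM in WT 1 and 72.5 CPM in WT 2. Of 6 duct markers 4 were measured lower, 3 at an unadjusted p under 0.05 and 1 called by DESeq2, and the list summed to 71.2 and 74.6 CPM in CRFR1-KO, 166 CPM in WT 1 and 102 CPM in WT 2. The islet markers summed to 235 and 292 CPM in CRFR1-KO, 39.9 CPM in WT 1 and 270 CPM in WT 2. Smooth muscle markers summed to 6.99 and 14.0 CPM in CRFR1-KO, 10.9 CPM in WT 1 and 16.2 CPM in WT 2. Endothelial markers summed to 46.7 and 52.9 CPM in CRFR1-KO, 46.6 CPM in WT 1 and 40.0 CPM in WT 2. Neither the smooth muscle nor the endothelial list was highest in WT 1. Among cascade genes, Map3k20, Map2k5, Map3k4 and Rps6ka1 were higher in WT 1 than in WT 2 by 0.73, 0.54, 0.40 and 0.39 log2 units, and Mapkapk3 and Hras were lower in WT 1 by 0.62 and 0.58. The part of tissue make-up in these values was not tested. Over the whole list WT 1 exceeded WT 2 for 17 of 35 genes, or 48.6%, beside 51.5% of all genes tested.

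Further genes of the pathway were taken by role. Of 30 other cascade kinases 28 were tested, with 12 higher, 16 lower and 0 called by edgeR, DESeq2 or limma-voom (0 at an unadjusted p under 0.05, beside 4.86% of all genes tested). Taok2, a MAP3K-type kinase, had the smallest p, at 11.5 and 10.7 CPM in CRFR1-KO and 9.77 and 6.89 CPM in WT (log2 fold change 0.41, SE 0.21). Mapk10, the JNK gene known from neurons, was near the floor, with 15 and 11 counts in CRFR1-KO and 0 and 4 in WT. Of 36 adaptors, RAS regulators and scaffolds 34 were tested, 15 higher and 19 lower. By edgeR, DESeq2 and limma-voom 0 were called, and 2 had an unadjusted p under 0.05, a share near the 4.86% of all genes tested. These were Ksr2, a relative of Ksr1, with 22 and 25 counts in CRFR1-KO and 4 and 4 in WT, and Rasgrf1, a RAS exchange factor, with 157 and 65 counts in CRFR1-KO and 27 and 57 in WT. Ksr2 was measured in the opposite direction to Ksr1, and its log2 fold change of 2.71 had an interval of 0.35 to 5.07.

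The ERK feedback and output genes, which report on pathway use rather than on its parts, had 12 of 16 tested members measured lower, beside 50.8% of all genes tested, at a median log2 fold change of -0.32, with 0 called by edgeR, DESeq2 or limma-voom. Of the 16, 3 were separated with CRFR1-KO lower, near the 16.9% of all genes tested, and 1, Spred2, with it higher, beside 16.6%. The 4 members measured higher were Dusp7, Spry4, Spred2 and Spred3, at log2 fold changes of 0.08, 0.51, 0.33 and 0.22. The median log2 ratio of WT 1 to WT 2 over the list was 0.21. Dusp6, which encodes an ERK phosphatase, was at 1.57 and 1.53 CPM in CRFR1-KO, 2.36 CPM in WT 1 and 1.41 CPM in WT 2. The immediate early gene Egr1 was at 1.02 and 1.22 CPM in CRFR1-KO, 2.01 CPM in WT 1 and 1.02 CPM in WT 2. Other members were higher in WT 2 than in WT 1, among them Spry1 (5.67 and 4.11 CPM) and Phlda1 (1.76 and 1.49 CPM). The part in these values of WT 1, which held the most matrix transcripts, was not tested. Etv5, a transcription factor gene induced by ERK, was the 1 member of 16 at an unadjusted p under 0.05, near the 4.86% of all genes tested, at 0.560 and 0.962 CPM in CRFR1-KO and 2.11 and 1.42 CPM in WT. The cyclin D1 gene Ccnd1 was at 5.62 and 7.61 CPM in CRFR1-KO and 9.16 and 8.80 CPM in WT (log2 fold change -0.44, SE 0.21). All 5 genes of phosphatases that act on JNK and p38 were measured lower, beside 50.8% of all genes tested. By the 3 tools 0 were called, and 0 had an unadjusted p under 0.05, beside 4.86% of all genes tested. Of the 5, 1 was separated, Dusp16, beside 16.9% of all genes tested. Dusp2 and Dusp10 had few counts, and their log2 fold changes of -0.09 (SE 0.93) and -0.10 (SE 1.10) leave the direction unsettled. Dusp8 was at 2.56 and 2.69 CPM in CRFR1-KO and 2.69 and 5.47 CPM in WT, and Dusp16 at 3.62 and 4.52 CPM in CRFR1-KO and 5.13 and 4.91 CPM in WT.

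Some gene models overlap others. Braf, Map3k11, Mapk7, Araf, Ksr1 and Rps6ka1 share exon bases with a gene on the opposite strand, and without the strand setting of the counting program reads of the pair cannot be told apart. The longest overlap with the opposite strand was 519 bases, between Map3k11 and 2 neighbours together, whose summed counts were 662 and 790 in CRFR1-KO and 954 and 720 in WT. For Mapk7 the partner is the microfibril gene Mfap4, with 40 and 55 counts in CRFR1-KO and 353 and 56 in WT. Map2k7 shares 1349 exon bases with a model on its own strand, Gm49320, that was at 0 in every library.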

How the data were processed

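Per the labels' protocols, poly(A) RNA was fragmented for strand-marked libraries (dUTP second strand, UDG digestion). The authors deposited raw counts, 1 whole number for each Ensembl gene in each library. FastQC, DESeq2 and edgeR are named in the submitters' processing notes, with no role stated. For the aligner, counting program, strand setting and genome build: not given in the sources used here. In every library counts of 4 were more frequent than counts of 3 or 5 (912, 356 and 216 genes in CRFR1-KO 1), so what 1 deposited count stands for in reads is not settled, and floors cover counting error only.

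Symbols, positions and exon lengths came from GENCODE M21 (GRCm38), where 55141 of the 55401 identifiers had a symbol. Columns were assigned to samples through the names that their labels carry. The test on counts used edgeR 4.0.16 under R 4.3.3 (TMM scaling, filterByExpr defaults, quasi-likelihood F test, two-sided, genotype as sole term), with Benjamini-Hochberg adjustment over 15131 genes at 0.05. Intervals use the t distribution on 7.097 degrees of freedom, of which 5.1 are prior degrees of freedom borrowed from the other genes tested. The SE came from the F statistic. Ratios between libraries used a pseudocount of 0.5 CPM. With 2 libraries against 2 an exact permutation test cannot go below a two-sided p of 0.333, so none was used. Alternatives were other scalings and filters, DESeq2 1.42.0, limma-voom (limma 3.58.1), a replicate block, leaving out each library and summing exon-sharing models. The length of the longest coding transcript was added after seeing the data.

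The members, lists and tests were chosen with earlier results of these data known. A log2 fold change with its SE and interval goes to Mapk3, Mapk14 and the 2 genes of each tier with the smallest p, and values to the 2 of each further list with the smallest p. Any other value singled out was chosen after it was seen. Some cascade genes are not reported here.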

Additional observations from a re-analysis of the deposited data

How the results depend on the processing

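The count of cascade genes past the threshold was 0 under all 13 alternatives, of which the filter at 1 CPM in 2 libraries left Map2k6 and Mapk11 untested. Over all genes, the 4 calls became 59 with the DESeq2 Wald test, which was also run on 22540 genes with its own filtering, 7 with a replicate block, and 0 with limma-voom or with exon-sharing models summed, and between 0 and 69 without 1 library. The low-count filters gave 6 without a filter and 4 at 1 CPM in 2 libraries. The median log2 fold change of the cascade genes, -0.0452 with all libraries, was -0.159 on library totals, where the median of all genes also shifted to -0.133, -0.0582 over 33 genes at 1 CPM in 2 libraries, -0.0313 in limma-voom, -0.0284 with the replicate block, and between -0.0722 and 0.0323 without 1 library. The lone library of a reduced group is assumed to vary like the others. On library totals Hras, Map3k3, Map2k1, Map2k5 and Mapk8 turned lower, at -0.0265, -0.0348, -0.0445, -0.139 and -0.0446 on the log2 scale, and 26 of the 35 were lower. In limma-voom Mapk11 and Mapkapk3 turned to -0.0179 and 0.0182, and with the replicate block Map3k4 turned to 0.0137. The replicate numbers in the titles share no stated source, and the deviations of same-numbered libraries had a correlation of -0.0747 across genes, so they were not taken as pairs. Leaving out 1 library turned the sign of 20 genes, whose log2 fold changes ranged from -0.0304 to 0.0373 for Map3k7, -0.276 to 0.0217 for Map2k4, -0.319 to 0.718 for Map2k6, -0.000272 to 0.202 for Mapk8, -0.769 to 0.751 for Mapk11, -0.199 to 0.102 for Mapk14, -0.226 to 0.406 for Hras. For Map3k2 the range was -0.368 to 0.129, for Map3k4 -0.193 to 0.231, for Map2k1 -0.096 to 0.228, for Map2k5 -0.273 to 0.381, for Map2k7 -0.123 to 0.0756, for Mapk7 -0.142 to 0.4, for Map3k20 -0.798 to 0.16. It was -0.356 to 0.0566 for Rps6ka1, -0.293 to 0.0553 for Grb2, -0.229 to 0.0481 for Map3k5, -0.239 to 0.0471 for Map2k2, -0.357 to 0.337 for Mapkapk3, -0.324 to 0.0643 for Rps6ka3. For these reversals the cause was not tested. With the longest coding transcript, Map2k2 held 42.5% of its tier in place of 29.5%. Mapk11, Map2k6, Mapk12, Ksr1 and Map3k20 are limited by their low counts.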
